A study of Mus musculus with 20 samples.

Results

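The cytochrome P450 enzymes of families 1 to 4 were examined in small intestine of mouse pups, across 2 ages and 2 kinds of dam. Members were all genes whose symbol is Cyp followed by a family number from 1 to 4, a subfamily letter and a gene number. This gave 75 of the 55487 mouse genes in the count table: 3 in family 1, 48 in family 2, 7 in family 3 and 17 in family 4. Of these, 44 passed the filter on low counts and were tested, 20 had some counts but too few (at most 50 in any library), and 11 had a count of 0 in all 20 libraries.

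PolyA RNA of small intestine was sequenced in bulk from 4 groups of 5 libraries each: 7-week pups of dams with periodontitis, 7-week control pups, 2-week pups of dams with periodontitis and 2-week control pups. Periodontitis is an inflammation of the tissues that hold the teeth, and the condition was that of the dam, not of the pup. "Periodontitis pups" below are the offspring of such dams. No strain, sex, litter or segment of the intestine is given, and the labels do not say whether libraries are separate animals, so p-values measure the spread between these libraries only. Level is given in CPM, a gene's counts rescaled to 1 common library size after trimmed-mean scaling, and per kilobase of exon where genes are compared with each other. A log2 fold change is 7 over 2 weeks or periodontitis over control, with its standard error (SE).

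P450 enzymes are heme proteins that insert an oxygen atom into their substrates, using electrons passed on by P450 reductase and cytochrome b5. Families 1 to 3 are known mainly for oxidising drugs, dietary chemicals and steroids, and family 4 for hydroxylating the ends of fatty acids and eicosanoids; several Cyp2c and Cyp2j enzymes also form epoxides from arachidonic acid. In the intestine they sit mostly in villus enterocytes, and sensors such as the aryl hydrocarbon receptor (AHR), the pregnane X receptor (PXR) and the constitutive androstane receptor (CAR) are known to control many of them.

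Promoter windows of RefSeq (GRCm38.p6, 250 bases before to 50 after the annotated start, 300 bases in all) were at hand for 62 of the 75 members. They are shown for Cyp1a1, whose age difference in periodontitis pups had the highest estimate, for Cyp3a11 and Cyp3a16 of the same cluster, which moved in opposite directions with age in periodontitis pups, and for the neighbours Cyp2c65 and Cyp2c66, which moved in the same direction. Capitals mark the AHR response element core GCGTG in Cyp1a1 and the letters CAAAGTCCA, a known form of the site of the receptor HNF4, in the others. The windows are chr9:57697363-57697662 on the plus strand for Cyp1a1, chr5:145879805-145880104 and chr5:145469674-145469973 on the minus strand for Cyp3a11 and Cyp3a16, and chr19:39060756-39061055 and chr19:39113648-39113947 on the plus strand for Cyp2c65 and Cyp2c66.
Cyp1a1: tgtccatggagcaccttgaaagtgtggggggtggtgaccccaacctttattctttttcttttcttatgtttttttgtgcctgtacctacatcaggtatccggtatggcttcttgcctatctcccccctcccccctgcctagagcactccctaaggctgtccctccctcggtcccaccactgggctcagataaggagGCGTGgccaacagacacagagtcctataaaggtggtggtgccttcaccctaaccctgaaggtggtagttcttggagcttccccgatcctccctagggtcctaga
Cyp3a11: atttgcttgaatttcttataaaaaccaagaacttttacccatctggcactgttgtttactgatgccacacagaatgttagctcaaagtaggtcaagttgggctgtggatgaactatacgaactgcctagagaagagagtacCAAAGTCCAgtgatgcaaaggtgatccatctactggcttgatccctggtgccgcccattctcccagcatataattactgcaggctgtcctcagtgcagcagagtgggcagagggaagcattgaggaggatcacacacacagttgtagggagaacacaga
Cyp3a16: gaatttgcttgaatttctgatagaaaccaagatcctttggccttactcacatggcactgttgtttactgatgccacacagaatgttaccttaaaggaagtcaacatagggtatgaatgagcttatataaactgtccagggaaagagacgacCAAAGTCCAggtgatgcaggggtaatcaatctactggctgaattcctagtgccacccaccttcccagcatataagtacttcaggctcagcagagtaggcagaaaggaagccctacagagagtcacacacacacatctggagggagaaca
Cyp2c65: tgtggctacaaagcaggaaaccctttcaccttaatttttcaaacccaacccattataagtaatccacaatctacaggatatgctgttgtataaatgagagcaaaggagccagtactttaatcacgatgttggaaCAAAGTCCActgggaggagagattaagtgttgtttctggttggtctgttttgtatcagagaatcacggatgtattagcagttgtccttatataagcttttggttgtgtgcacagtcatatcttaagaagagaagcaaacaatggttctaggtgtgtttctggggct
Cyp2c66: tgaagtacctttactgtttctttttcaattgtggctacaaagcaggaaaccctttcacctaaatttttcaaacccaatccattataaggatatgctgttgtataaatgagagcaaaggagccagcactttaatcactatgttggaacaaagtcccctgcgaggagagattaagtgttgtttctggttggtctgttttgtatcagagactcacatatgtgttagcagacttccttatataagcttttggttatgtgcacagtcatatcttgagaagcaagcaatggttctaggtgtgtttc
Searched on both strands, CAAAGTCCA was found in 8 of the 62 member windows (12.9%), against 0.555% of the windows of all 27025 genes in the table. The 8 were Cyp2c40, Cyp2c65, Cyp2c67, Cyp2c68, Cyp2c69, Cyp2c70, Cyp3a11 and Cyp3a16, all from tandem clusters whose members share sequence by descent. GCGTG was found in 13 of the 62 (21%), against 35.2% of all genes. The Cyp3a11 and Cyp3a16 windows were identical at 82.2% of 286 aligned bases and both hold the longer motif, although the levels of the pair differed in direction. The Cyp2c65 and Cyp2c66 windows were identical at 94.5% of 271 aligned bases, and the motif was found in Cyp2c65 alone. A match describes letters only.

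Libraries held 14882204 to 42563229 counts and 20080 to 24122 detected genes, with both minima in control library 5 at 2 weeks. Enterocyte markers were abundant in every group, with summed levels from 23232 to 100409 CPM. Periodontitis library 5 at 7 weeks stood apart, with an enterocyte sum of 34932 CPM against 82685 CPM or more in the other 4 of its group. Other features moved with age. The ileal marker Fabp6 was at 0 CPM in the 7-week periodontitis libraries and at most 0.724 CPM in the 7-week control libraries, against 2.92 to 365 CPM in 2-week periodontitis and 197 to 510 CPM in 2-week control libraries. The ileal hormone Fgf15 had a count of 0 in all 10 libraries of 7 weeks. Of the 6 proximal markers 3 fell and 2 rose with age in both kinds of pup, and of the 6 distal markers 4 fell in both while 2 rose in periodontitis and 1 in control pups. The summed distal list was nonetheless higher at 7 weeks, at 2684 to 6392 CPM against 1879 to 2584 CPM at 2 weeks. All 7 pancreatic markers fell, with sums of 5.52 to 11.5 CPM at 7 weeks and 130 to 1354 CPM at 2 weeks. Xist, expressed from the inactive X, was at most 0.658 CPM at 7 weeks and reached 137 CPM at 2 weeks, where Y-linked Ddx3y ran from 0 to 77.4 CPM. Age, sampled segment and sex therefore cannot be told apart in the age comparisons below.

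The summed level of the 75 members was far higher at 7 weeks. It was 17395 ± 3152 CPM in 7-week periodontitis pups and 20516 ± 3649 CPM in 7-week control pups, against 1552 ± 687 CPM in 2-week periodontitis pups and 2762 ± 694 CPM in 2-week control pups (SD, n = 5 each). The lowest 7-week library, at 13285 CPM, stood above the highest 2-week library, at 3894 CPM. As a share of counts, this was 1.36% ± 0.179 and 1.57% ± 0.198 in 7-week periodontitis and control pups, against 0.208% ± 0.0842 and 0.328% ± 0.0339 in 2-week periodontitis and control pups. Cyp3a was the subfamily with the most reads at both ages, with a sum of 8741 ± 2204 CPM in 7-week periodontitis, 11141 ± 2575 CPM in 7-week control, 517 ± 295 CPM in 2-week periodontitis and 1052 ± 316 CPM in 2-week control pups. Enterocyte markers moved the same way with age, with 6 of 7 up in periodontitis and 7 of 7 in control pups (medians 1.29 and 1.24 on the log2 scale), as did weaned enterocyte markers, with 7 of 7 and 6 of 7 up (medians 2.65 and 1.47). Of 5 smooth muscle markers 4 fell in both kinds of pup. The part of these in the P450 levels was not tested. In bulk tissue, a change in the number of enterocytes and a change in RNA per cell cannot be told apart.

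**Figure D1:**
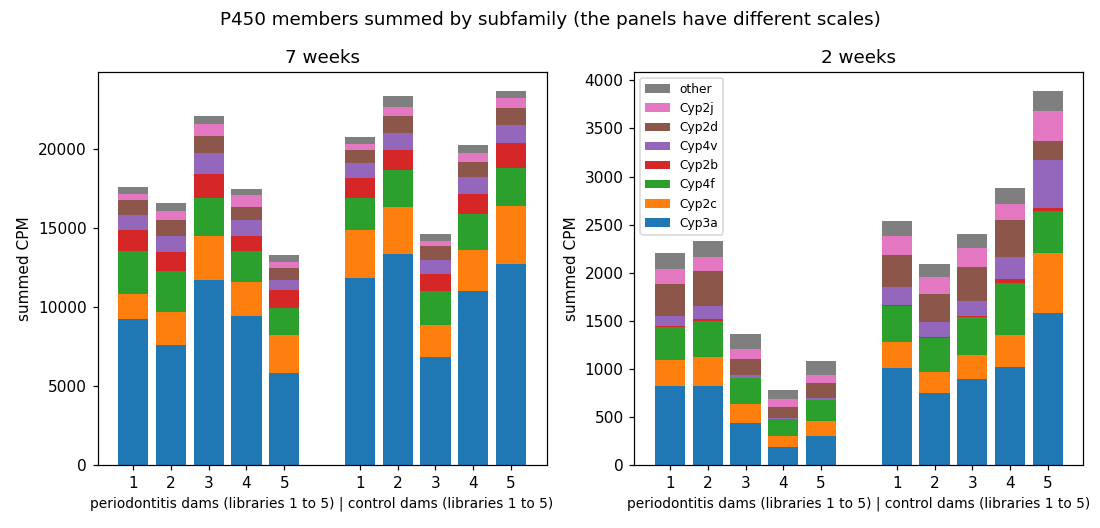
Summed CPM of the 75 members in each library, stacked by subfamily, with 7 weeks on the left and 2 weeks on the right on different scales; each bar is 1 library, numbered within its group. The 7-week bars reach 13285 to 23681 CPM and the 2-week bars 779 to 3894 CPM, with the Cyp3a block at the base the tallest in most bars.

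The order of the members also differed between ages. Per kilobase of exon, Cyp3a11, the mouse enzyme most like human CYP3A4, came first in 7-week periodontitis pups with 1045 CPM per kilobase, ahead of Cyp3a13 (859), Cyp4f14 (750), Cyp2b10 (576) and Cyp2d26 (469). In 2-week periodontitis pups the first 3 were Cyp2d26 at 119 CPM per kilobase, Cyp3a13 at 82.6 and Cyp4f16 at 52.6, with Cyp3a11 at 34.8 and Cyp2b10 at 2.06. In 2-week control pups Cyp3a13 came first at 179 CPM per kilobase, Cyp2d26 second at 166, and Cyp3a11 stood at 70.5. Read within each library, Cyp2d26 was above Cyp3a13 per kilobase in all 5 periodontitis libraries and in control libraries 1 to 4 at 2 weeks. The order of the control means rests on library 5, with 272 CPM per kilobase of Cyp3a13 and 105 of Cyp2d26.

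**Figure D2:**
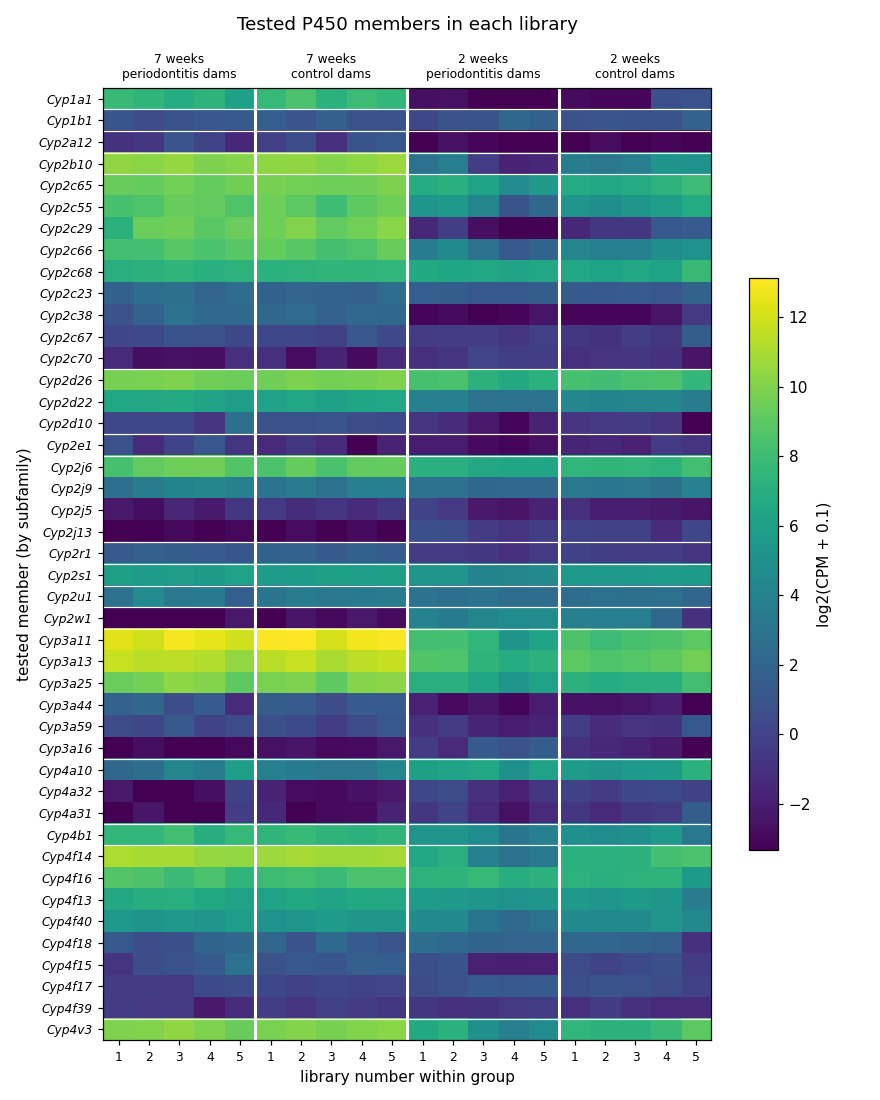
Level of the 44 tested members in each of the 20 libraries as log2(CPM + 0.1), with members grouped by subfamily and libraries by group. Most rows are brighter in the 10 libraries of 7 weeks, and Cyp2w1, Cyp2j13 and Cyp3a16 are darker there; in 2-week periodontitis pups, libraries 3, 4 and 5 are darker than 1 and 2 in many rows.

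Between 2 and 7 weeks most tested members rose. In periodontitis pups 31 of 44 rose and 6 fell, where 30.4% of all 17464 genes tested rose and 35.7% fell (edgeR quasi-likelihood test, Benjamini-Hochberg adjusted p under 0.05). In control pups 24 of 44 rose and 5 fell, against 27.1% and 34.4% of all genes. The median log2 fold change of the tested members was 1.89 in periodontitis and 1.18 in control pups, beside -0.11 and -0.13 over all genes tested. The same 24 members rose in both kinds of pup and 3 fell in both. The filter itself selects for difference: 5 members had enough counts only at 7 weeks (Cyp1a1, Cyp2a12, Cyp2c38, Cyp2e1, Cyp3a44), 6 only at 2 weeks (Cyp2c70, Cyp2j13, Cyp2w1, Cyp3a16, Cyp4a31, Cyp4a32) and Cyp2j5 at neither alone. A further 7 rose in periodontitis pups and did not pass in control pups (Cyp2c67, Cyp2e1, Cyp2j9, Cyp2s1, Cyp3a59, Cyp4f15, Cyp4f40), and 3 fell there in the same way (Cyp2c70, Cyp3a16, Cyp4f17); the test of that difference between the kinds of pup, given with the dam comparisons, called 0. The 5 members called in neither were Cyp1b1, Cyp2j5, Cyp2u1, Cyp4f18 and Cyp4f39. Among the 32 that had enough at each age, 26 rose and 2 fell in periodontitis pups, and 20 rose and 1 fell in control pups. Without control library 5 at 2 weeks and periodontitis library 5 at 7 weeks, the counts called in either direction were 40 in periodontitis and 35 in control pups, against 37 and 29 with all libraries and 66.1% and 61.5% of all genes.

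**Figure D3:**
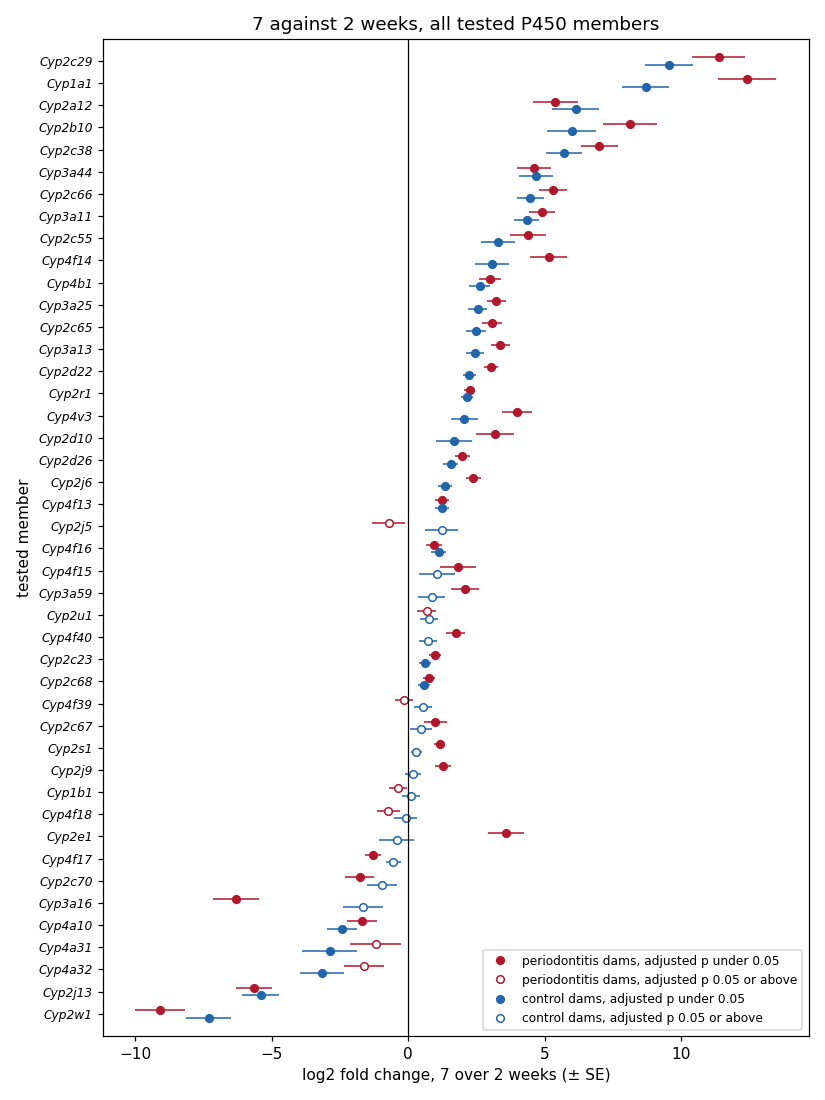
Log2 fold change of 7 over 2 weeks for each of the 44 tested members, with bars of 1 SE; red is periodontitis pups and blue control pups, and filled points have an adjusted p under 0.05. Cyp1a1 and Cyp2c29 lie farthest to the right, at 12.42 and 11.37 in periodontitis and 8.71 and 9.57 in control pups, and Cyp2w1 farthest to the left, at -9.09 in periodontitis and -7.31 in control pups.

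In family 1, Cyp1a1 (ENSMUSG00000032315, chr9:57687928-57703824 in GENCODE M21 on GRCm38), which oxidises aromatic hydrocarbons and is the best known AHR target, was close to absent at 2 weeks. It had 214, 177, 118, 168 and 69.3 CPM in periodontitis libraries 1 to 5 and 147 to 346 CPM, with a mean of 229 ± 75.3 CPM (SD, n = 5), in control libraries at 7 weeks. Its level at 2 weeks was 0.0561, 0.0639, 0, 0 and 0 CPM in the periodontitis libraries and 0.0387, 0.023, 0.0227, 1.52 and 1.69 CPM in the control libraries. Every 7-week library stood above every 2-week library, and among the 2-week libraries control libraries 4 and 5 alone exceeded 1 CPM. The log2 fold change with age was 12.42 ± 1.07 in periodontitis pups (edgeR adjusted p = 2.16e-08) and 8.71 ± 0.86 in control pups (edgeR adjusted p = 1.86e-07). The periodontitis value rests on 6 counts at 2 weeks. Cyp1a1 had enough counts for the filter only at 7 weeks, so the filter favoured a rise. Cyp1b1, which oxidises oestrogens and retinoids outside the liver, stayed between 1.07 and 4.43 CPM in all 20 libraries. It did not pass with age in the main fit (log2 fold change -0.38 ± 0.33 and 0.09 ± 0.33 in periodontitis and control pups). With the proximal and distal marker scores as covariates the estimate was -2.53 in each. In that fit it passed in periodontitis pups (edgeR adjusted p = 0.0262) and not in control pups (edgeR adjusted p = 0.0623). The markers behind these scores moved with age themselves, so the fit cannot separate segment from age. Cyp1a2, the liver form of family 1, had too few counts to be tested, 100 over all libraries.

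In family 3, Cyp3a11 (ENSMUSG00000056035, chr5:145854426-145879964), a PXR target that oxidises drugs, steroids and bile acids, had 5240, 3991, 7613, 5919 and 3845 CPM in 7-week periodontitis and 8204, 8919, 4202, 6996 and 8229 CPM in 7-week control libraries. Values at 2 weeks were 288, 301, 183, 36 and 78.1 CPM in periodontitis and 365, 248, 322, 362 and 498 CPM in control libraries. The ages did not overlap. It rose by 4.91 ± 0.48 on the log2 scale in periodontitis pups (edgeR adjusted p = 8.22e-08) and by 4.35 ± 0.46 in control pups (adjusted p = 4.44e-07). Cyp3a13, a form of the intestinal epithelium, rose by 3.38 ± 0.35 and 2.45 ± 0.33, and Cyp3a25 by 3.23 ± 0.36 and 2.54 ± 0.35, in periodontitis and control pups. Of the 6 tested Cyp3a genes 5 rose and 1 fell in periodontitis pups, where 30.4% of all genes rose and 35.7% fell. In control pups 4 rose and 0 fell, against 27.1% and 34.4% of all genes. Cyp3a44 had enough counts for the filter only at 7 weeks and Cyp3a16 only at 2 weeks, so the filter favoured the direction of each. Cyp3a25, Cyp3a44 and Cyp3a59 share 26.5% to 30% of their 50-base windows with other genes, so their counts may be divided wrongly among relatives.

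Cyp3a16 (chr5:145436309-145469723), known as a form of the fetal and newborn mouse liver, went the other way. It had 0, 0.0512, 0, 0 and 0.0289 CPM in 7-week periodontitis libraries and 0.617, 0.298, 2.41, 1.71 and 2.73 CPM in 2-week periodontitis libraries, which do not overlap. In control pups it had 0.0663, 0.0981, 0.0328, 0.0389 and 0.121 CPM at 7 weeks and 0.407, 0.276, 0.205, 0.132 and 0 CPM at 2 weeks, where the 0 of library 5 brings the ages into overlap. It fell in periodontitis pups (edgeR adjusted p = 3.3e-06), where 2 counts at 7 weeks against 388 at 2 weeks give a level 95.4-fold lower with a 95% counting interval of 26.2 to 791. In control pups the log2 fold change of -1.66 ± 0.74 did not pass (edgeR adjusted p = 0.0571). Liver markers moved with it: of the 5 tested, 4 fell and 1 rose with age in both kinds of pup, and the list summed to 2.87 to 7.9 CPM at 7 weeks and 16 to 186 CPM at 2 weeks. The liver's defining marker Alb was at most 0.463 CPM in any library. The part of these markers in the Cyp3a16 result was not tested.

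In subfamily Cyp2c, whose members are known to oxidise arachidonic and linoleic acid as well as drugs, 8 of 9 tested members rose and 1 fell in periodontitis pups. There 30.4% of all genes rose and 35.7% fell. In control pups 7 Cyp2c members rose and 0 fell, against 27.1% and 34.4% of all genes. Cyp2c38 had enough counts for the filter only at 7 weeks and Cyp2c70 only at 2 weeks, so the filter favoured the direction of each. Cyp2c29, an inducible epoxygenase, had 152, 697, 748, 483 and 672 CPM in 7-week periodontitis and 713, 1030, 589, 773 and 1172 CPM in 7-week control libraries. Levels at 2 weeks were 0.28, 0.703, 0.0609, 0 and 0 CPM in periodontitis and 0.252, 0.529, 0.546, 2.22 and 2.58 CPM in control libraries. Its lowest 7-week library, periodontitis library 1, was thus still far above every 2-week library. The log2 fold change was 11.37 ± 0.96 in periodontitis and 9.57 ± 0.88 in control pups (edgeR adjusted p = 1.67e-08 and 8.36e-08). Cyp2c55, Cyp2c65 and Cyp2c66, known as forms of the gut, rose by 4.39 ± 0.66, 3.08 ± 0.36 and 5.29 ± 0.51 in periodontitis pups and by 3.29 ± 0.63, 2.49 ± 0.36 and 4.47 ± 0.49 in control pups. Cyp2c65 and Cyp2c66 share about 20.2% and 19.5% of their 50-base windows with each other, which leaves most of each gene distinct. The member that fell was Cyp2c70, the enzyme of muricholic acid synthesis in mice, with log2 fold changes of -1.78 ± 0.54 in periodontitis pups (edgeR adjusted p = 0.00734) and -0.97 ± 0.55 in control pups (adjusted p = 0.135). Cyp2c70 was chosen after its values were seen.

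Cyp2b10, the standard CAR target of the mouse, was the member of its subfamily that carried counts; the other 4 Cyp2b genes were at 0 in all libraries. It had 1330, 1197, 1492, 950 and 1114 CPM in 7-week periodontitis and 1263, 1323, 1090, 1274 and 1577 CPM in 7-week control libraries. The 2-week levels were 7.35, 13.2, 0.71, 0.205 and 0.268 CPM in periodontitis and 12, 9.22, 12.8, 35.6 and 33.8 CPM in control libraries. The 7-week libraries lay close together, whereas 2-week periodontitis libraries 3, 4 and 5 lay below all others. It rose by 8.13 ± 0.98 on the log2 scale in periodontitis and by 5.99 ± 0.89 in control pups (edgeR adjusted p = 1.05e-06 and 1.64e-05). All 3 tested Cyp2d genes rose in both, where 30.4% of all genes rose in periodontitis and 27.1% in control pups. Among them, Cyp2d26 rose by 1.98 ± 0.27 on the log2 scale in periodontitis and 1.56 ± 0.27 in control pups. Cyp2r1, the vitamin D 25-hydroxylase, rose by 2.25 ± 0.21 in periodontitis and 2.15 ± 0.21 in control pups at a low level of 1.97 to 3.58 CPM at 7 weeks against 0.375 to 0.814 CPM at 2 weeks.

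Some members of family 2 fell with age. Cyp2w1 and Cyp2j13, described here, had enough counts for the filter only at 2 weeks, so the filter favoured a fall. Cyp2w1 (chr5:139352617-139357033), known in human from colorectal tumours, had 0 CPM in 7-week periodontitis libraries 1 to 4 and 0.116 CPM in library 5, and 0, 0.0981, 0.0328, 0.117 and 0.0402 CPM in 7-week control libraries. At 2 weeks it had 15.3, 11.3, 18.4, 25.6 and 24.2 CPM in periodontitis and 14, 13.1, 13.2, 4.34 and 0.402 CPM in control libraries. The ages did not overlap, with control library 5 the lowest of 2 weeks. Its log2 fold change was -9.09 ± 0.90 in periodontitis and -7.31 ± 0.83 in control pups (edgeR adjusted p = 9.72e-08 and 8.96e-07), from 4 and 7 counts at 7 weeks. Cyp2j13 also fell in both: 2 counts at 7 weeks against 243 at 2 weeks in periodontitis pups give a level 59.8-fold lower (95% counting interval 16.4 to 496), and 2 against 152 in control pups a level 50.8-fold lower (13.8 to 423). Counting intervals cover counting error alone. Cyp2w1, Cyp2j13, Cyp2r1 and, with age, Cyp3a16, Cyp4a31 and Cyp4a32 were named after their values were seen.

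Family 4 divided by subfamily. Of 8 tested Cyp4f genes, known for hydroxylating leukotrienes and long fatty acids, 5 rose and 1 fell in periodontitis pups, and 3 rose and 0 fell in control pups. Over all genes tested, 30.4% rose and 35.7% fell in periodontitis pups, and 27.1% rose and 34.4% fell in control pups, so these few genes stand little apart in control pups. Cyp4f14, which inactivates leukotriene B4, had 2161, 2036, 2014, 1486 and 1375 CPM in 7-week periodontitis and 1667, 1903, 1762, 1785 and 1905 CPM in 7-week control libraries. Its 2-week levels were 93.3, 132, 14.6, 7.06 and 9.95 CPM in periodontitis and 142, 146, 149, 300 and 348 CPM in control libraries. Every 7-week library stood above every 2-week library, and it rose by 5.14 ± 0.68 and 3.06 ± 0.62 on the log2 scale in periodontitis and control pups (edgeR adjusted p = 2.91e-06 and 0.000312). Cyp4v3, the mouse counterpart of the human fatty acid hydroxylase CYP4V2, rose by 3.99 ± 0.54 in periodontitis and 2.05 ± 0.50 in control pups. Cyp4b1, which hydroxylates shorter fatty acids and activates plant furans, rose by 2.99 ± 0.40 in periodontitis and 2.62 ± 0.39 in control pups.

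The tested Cyp4a genes, fatty acid omega-hydroxylases and classic targets of the receptor PPARA, had the opposite direction. Cyp4a31 and Cyp4a32 had enough counts for the filter only at 2 weeks, so the filter favoured a fall. Cyp4a10 alone of them had enough at each age. Cyp4a10 had 4.32, 6.14, 17.9, 11.8 and 60 CPM in 7-week periodontitis and 14, 11.2, 9.12, 8.95 and 18.7 CPM in 7-week control libraries. The 2-week libraries had 64.7, 72.2, 89.7, 30.5 and 70.9 CPM in periodontitis and 53.5, 36.8, 48.4, 51.9 and 143 CPM in control libraries. Control pups did not overlap between ages, and periodontitis pups did through library 5 of 7 weeks. It fell by 1.70 ± 0.55 on the log2 scale in periodontitis and by 2.43 ± 0.56 in control pups (edgeR adjusted p = 0.00996 and 0.00103). With the proximal and distal marker scores as covariates the estimates were 0.31 in periodontitis and -0.21 in control pups and did not pass. The distal markers themselves had a median log2 fold change with age of -2.18 in periodontitis and -3.14 in control pups. That fit therefore cannot separate segment from age. Cyp4a31 and Cyp4a32 fell in control pups, by 2.88 ± 1.00 and 3.17 ± 0.81 on the log2 scale, and did not pass in periodontitis pups. Cyp4a10, Cyp4a31 and Cyp4a32 share 29.8%, 20.6% and 43.8% of their windows with other genes, so they are not fully separate readings.

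**Figure D4:**
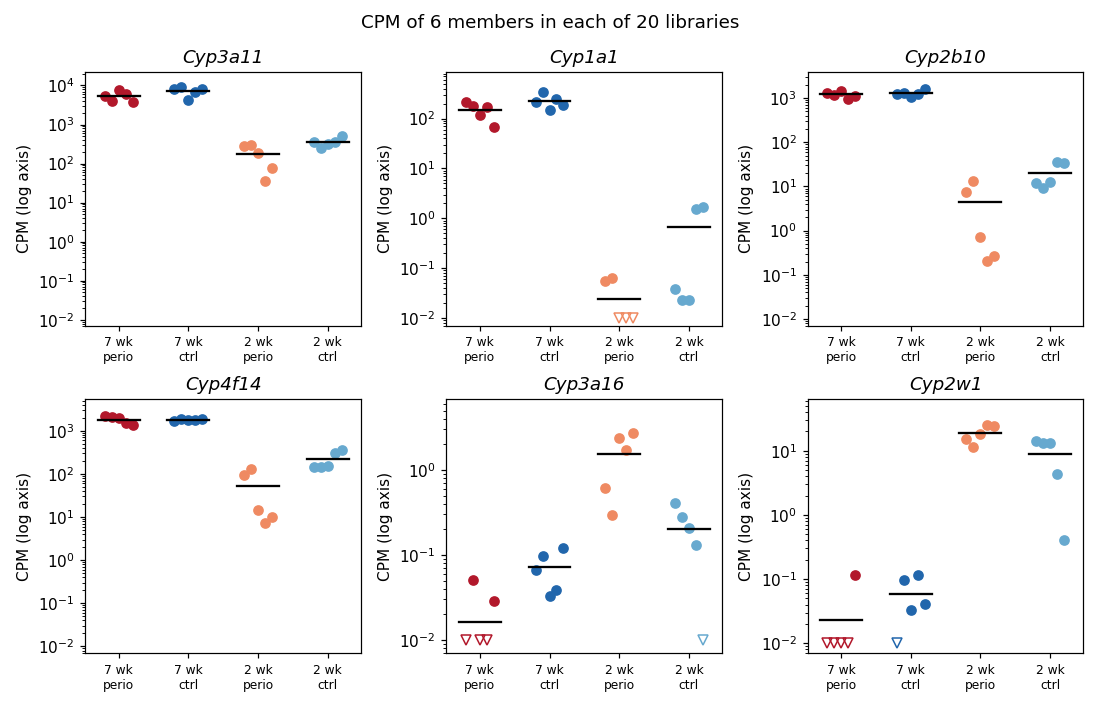
CPM on a log axis of Cyp3a11, Cyp1a1, Cyp2b10, Cyp4f14, Cyp3a16 and Cyp2w1 in each library, in the order 7-week periodontitis, 7-week control, 2-week periodontitis and 2-week control; points are libraries, black lines group means, and open triangles libraries with 0 counts, drawn at 0.01 CPM. The first 4 genes are high at 7 weeks, and Cyp3a16 and Cyp2w1 at 2 weeks, with Cyp3a16 at a mean of 1.55 CPM in periodontitis and 0.204 CPM in control pups.

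Genes that work with the P450s were followed with age, with each pair of log2 fold changes in this paragraph and the next given for periodontitis and then for control pups. Over all genes tested, 30.4% rose and 35.7% fell in periodontitis pups, and 27.1% rose and 34.4% fell in control pups. Of 8 redox partners 7 rose in both kinds of pup and 0 fell, with Pgrmc1, a heme-binding partner of P450s, up by 2.38 in periodontitis and 1.98 in control pups, Cyb5r3, the reductase of cytochrome b5, by 2.52 and 1.98, and Por, the P450 reductase, by 1.55 and 1.53 on the log2 scale. Of 12 genes of heme synthesis and breakdown, 4 rose and 1 fell in periodontitis pups and 5 rose and 2 fell in control pups; Alas1, which starts heme synthesis, rose by 1.64 and 1.53 and Hmox1, which breaks heme down, fell by 2.88 and 1.62. Of 12 receptors and regulators 7 rose and 1 fell in periodontitis pups and 6 rose and 2 fell in control pups, with Hnf4g up by 1.88 and 0.80 and Rxra by 1.14 and 1.23. Of 10 PXR and CAR targets outside the P450s 9 rose and 1 fell in periodontitis pups and 8 rose and 1 fell in control pups, with Gstm1 up by 4.73 and 4.53. All 4 tested AHR targets outside the P450s rose in both, among them Nqo1 by 1.66 and 1.64. Aldh3a1, also in that list of 5, had too few counts to be tested and went the other way. It had 0 to 0.0289 CPM at 7 weeks against 0.112 to 0.648 CPM at 2 weeks in periodontitis pups. In control pups it had 0 to 0.0984 CPM against 0.132 to 0.529 CPM.

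Of 12 PPARA targets 8 rose and 4 fell in periodontitis pups and 7 rose and 2 fell in control pups: Fabp1, which carries fatty acids, rose by 2.72 and 2.47, while Cpt1a, which lets fatty acids into mitochondria, fell by 1.57 and 1.43. Of 10 arachidonate enzymes 5 rose and 4 fell in both; the epoxide hydrolase Ephx1 rose by 4.00 and 4.11 and the lipoxygenase Alox15 fell by 3.53 and 2.32. Of the 18 genes of other P450 families 7 were tested, of which 1 rose and 5 fell in both, with a median of -1.79 in periodontitis and -1.73 in control pups. The riser was Cyp27a1, the mitochondrial sterol hydroxylase of bile acid synthesis, at 2.54 in periodontitis and 1.22 in control pups. The edgeR adjusted p of each gene said here to rise or fall was under 0.05; Por was named after its values were seen.

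Periodontitis was compared with control pups at each age to ask whether the dam's condition goes with expression in the offspring. At 2 weeks more P450 members were lower than higher in periodontitis pups, without passing the test. By edgeR's adjusted p 0 of 44 were called, where 0.0286% of all genes tested were, and DESeq2 called 8. At an unadjusted p under 0.05, 18 members were lower and 2 higher, against 9.07% and 5.31% of all genes. The median log2 fold change was -0.52, beside 0.02 over all genes, and 29 of 44 estimates were below 0, as were 47.3% of all genes. In 5 members, Cyp2e1, Cyp2j6, Cyp2s1, Cyp4f14 and Cyp4v3, every periodontitis library was below every control library, and in 0 above, against 3.54% and 3.71% of all genes. Which library is left out matters. Without periodontitis library 2 edgeR called 9 (1 higher, 8 lower), and without periodontitis library 1 it called 2 (1 higher, 1 lower). Without control library 5 together with 7-week periodontitis library 5 it called 3 (1 higher, 2 lower). Leaving out control library 5 alone gave 0, as did each other 2-week control library and periodontitis library 3, 4 or 5. The shares of all genes called by DESeq2 and by these leave-out fits are not given here, so their counts of members stand without a background.

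The 5 periodontitis libraries were not alike. Libraries 3, 4 and 5 had 23, 26 and 21 of the 44 tested members below all 5 control libraries (52.3%, 59.1% and 47.7%), against 17.9%, 19.7% and 20.3% of all genes tested. Libraries 1 and 2 had 10 and 7 (22.7% and 15.9%), against 15.2% and 11% of all genes. The summed member level was 2202, 2332, 1364, 779 and 1080 CPM in periodontitis libraries 1 to 5 and 2533, 2093, 2403, 2885 and 3894 CPM in control libraries 1 to 5, with libraries 3 to 5 below every control.

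Markers of enterocyte stage moved with the members. The list of weaned enterocyte markers, with 7 of 7 estimates below 0 and 0 called by edgeR, summed to 2366, 2714, 1089, 886 and 887 CPM in periodontitis libraries 1 to 5, against 2994 to 5915 CPM in control libraries. Suckling enterocyte markers, 7 of 8 above 0 and 0 called, summed to 4115, 3201, 6063, 5636 and 6750 CPM, against 1276 to 3375 CPM. The proximal list had 6 of 6 estimates below 0 and summed to 1121 to 2640 CPM in periodontitis and 2187 to 2865 CPM in control libraries. The distal list had 4 of 6 below 0 and summed to 1879 to 2584 CPM and 1972 to 2497 CPM in the same order. Within it, the ileal marker Fabp6 had 365, 328, 17.5, 2.92 and 8.07 CPM in periodontitis libraries 1 to 5, against 197 to 510 CPM in control libraries. The liver list had 4 of 5 tested genes above 0 and summed to 39.7 to 186 CPM, against 16 to 43.2 CPM in control libraries, while Alb itself was at most 0.168 CPM in periodontitis and 0.299 CPM in control libraries, and Ahsg at most 0.0812 and 0.0227 CPM in the same order. Ddx3y ran from 0.0374 to 35 CPM in periodontitis and from 0 to 77.4 CPM in control libraries. The part of these in the lower P450 levels was not tested. With the proximal and distal marker scores as covariates the estimate was -0.45 for Cyp3a11 (-1.02 without), -0.42 for Cyp2s1 (-0.86 without), -1.20 for Cyp4v3 (-1.97 without) and 1.73 for Cyp3a16 (2.76 without). With Ddx3y as a covariate these 4 were -1.01, -0.88, -1.90 and 2.78. Some other members shrank further with the proximal and distal scores. The estimate was then -0.12 for Cyp2c65 (-0.85 without), -0.06 for Cyp2d26 (-0.48 without) and -0.35 for Cyp2c66 (-1.21 without). Cyp4a10, Cyp4b1 and Cyp1b1 changed sign, to 0.58, 0.29 and -0.53 (-0.02, -0.19 and 0.18 without).

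The members with the smallest p-values at 2 weeks came from all 4 families. Cyp2s1 (chr7:25802475-25816913), an AHR-inducible form of epithelia outside the liver, had 37.6, 38.6, 17.1, 18.1 and 22.5 CPM in periodontitis and 46.9, 47.9, 45, 54.1 and 49.3 CPM in control libraries. The groups did not overlap, with libraries 3, 4 and 5 the lowest. The log2 fold change was -0.86 ± 0.20 (edgeR adjusted p = 0.0591; exact permutation p = 0.00794, two-sided, the smallest that 5 against 5 allow). Cyp4v3 had 102, 142, 30.2, 13.2 and 24 CPM in periodontitis and 180, 155, 155, 228 and 498 CPM in control libraries, again without overlap (-1.97 ± 0.49, edgeR adjusted p = 0.0831). For Cyp4f14, whose library values stand above, the log2 fold change was -2.08 ± 0.59 (edgeR adjusted p = 0.117), and for Cyp1a1 it was -4.33 ± 1.17 (adjusted p = 0.0975). That Cyp1a1 value rests on control libraries 4 and 5, the other 3 controls being at the level of the periodontitis libraries.

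Cyp3a13 had 402, 385, 169, 115 and 150 CPM in periodontitis and 497, 387, 434, 519 and 804 CPM in control libraries. The groups overlapped by library 1, which was above control library 2, and the log2 fold change was -1.11 ± 0.32 (edgeR adjusted p = 0.118). Cyp2j6, which oxidises arachidonic and linoleic acid in the gut, had 141, 137, 95.5, 80.1 and 83.7 CPM in periodontitis and 182, 174, 182, 157 and 287 CPM in control libraries, with no overlap (-0.87 ± 0.26, adjusted p = 0.12). Cyp2d22, the counterpart of human CYP2D6, differed by -0.72 ± 0.23 (adjusted p = 0.151). Among the most abundant members, Cyp3a11 differed by -1.02 ± 0.41, Cyp3a25 by -0.81 ± 0.33, Cyp2b10 by -2.24 ± 0.76, Cyp2c29 by -2.43 ± 0.79, Cyp2c55 by -1.34 ± 0.59, Cyp2c65 by -0.85 ± 0.34, Cyp2c66 by -1.21 ± 0.44 and Cyp2d26 by -0.48 ± 0.27. The edgeR adjusted p of these 8 ran from 0.161 to 0.43. Cyp4a10 at -0.02 ± 0.53, Cyp4b1 at -0.19 ± 0.37 and Cyp1b1 at 0.18 ± 0.33 were near 0.

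Cyp3a16 had the smallest p of all tested members at 2 weeks, and its estimate was above 0. It had enough counts for the filter only at 2 weeks, with 388 counts in periodontitis and 48 in control pups. Cyp3a16 thus entered the test through the group where it was high, which limits what its p can show. Its log2 fold change was 2.76 ± 0.57 (edgeR adjusted p = 0.0541; exact permutation p = 0.0159), with library values given above. Periodontitis libraries 3, 4 and 5, which had the most members below all controls, were the 3 highest for Cyp3a16. Library 1 was also above all controls, and library 2 overlapped them. DESeq2 called Cyp3a16 higher (adjusted p = 0.00198) and Cyp1a1, Cyp2c29, Cyp2j6, Cyp2s1, Cyp3a13, Cyp4f14 and Cyp4v3 lower, with adjusted p from 0.00304 to 0.0472.

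**Figure D5:**
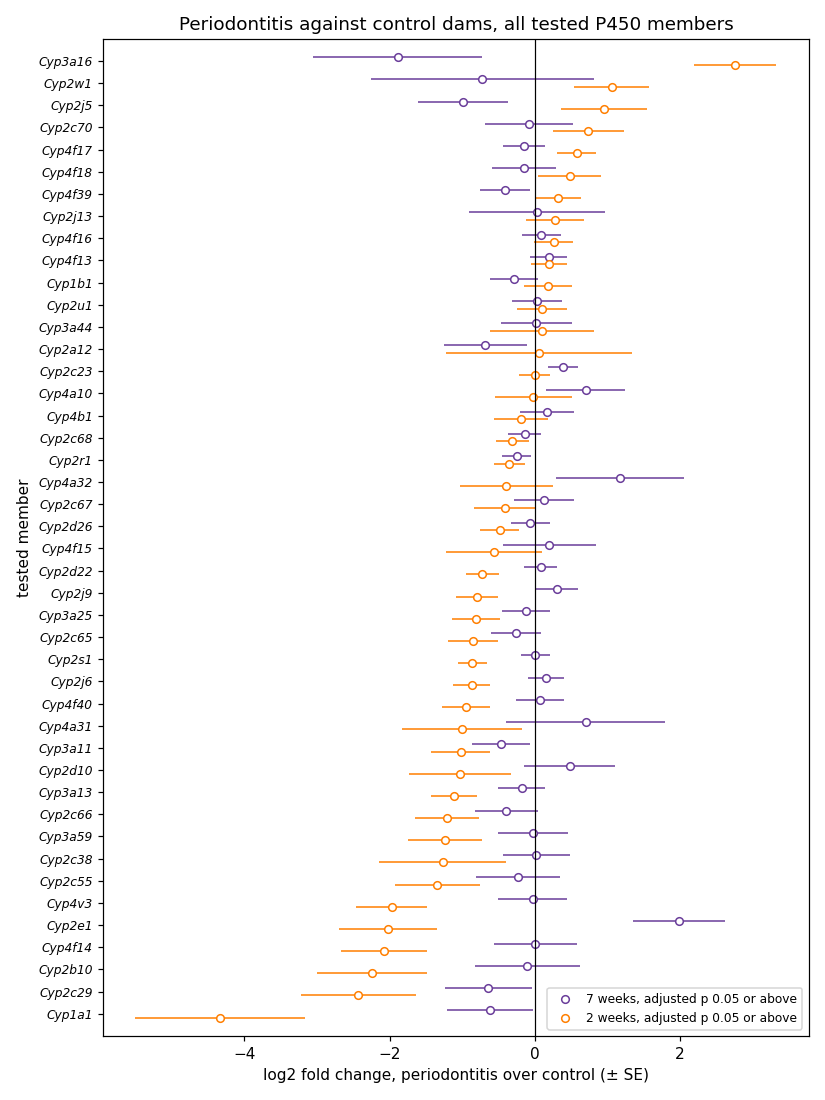
Log2 fold change of periodontitis over control for each of the 44 tested members, with bars of 1 SE, at 7 weeks in purple and at 2 weeks in orange; points are open because 0 had an edgeR adjusted p under 0.05 at either age. The 2-week points run from -4.33 for Cyp1a1 to 2.76 for Cyp3a16, and the 7-week points from -1.89 to 1.99.

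At 7 weeks no member passed the test by dam, and the estimates lay on either side of 0. By edgeR's adjusted p 0 of 44 were called, as were 0.0115% of all genes tested, and DESeq2 called 0. At an unadjusted p under 0.05 there was 1 member, Cyp2e1, where 3.33% of all genes were below it. The median log2 fold change was -0.02, beside 0.02 over all genes, and 0 members had groups that did not overlap, against 0.281% of all genes lower and 0.246% higher. Cyp3a11 differed by -0.46 and Cyp1a1 by -0.62 on the log2 scale, and Cyp2s1 and Cyp4f14 by 0.01 each. Of the others with the smallest p, Cyp2c23, an arachidonate epoxygenase, differed by 0.39 ± 0.21, Cyp2r1 by -0.25 ± 0.20, Cyp4f39, which hydroxylates very long fatty acids of the skin, by -0.41 ± 0.34 and Cyp2j5 by -0.99 ± 0.62, the last from 31 counts in periodontitis and 61 in control pups. Cyp3a16 had 2 counts in periodontitis and 9 in control pups, a ratio of 4.26 lower with a 95% counting interval of 0.881 to 40.5. Cyp4a10 and Cyp4a32 differed by 0.70 ± 0.54 and 1.17 ± 0.88, and without periodontitis library 5, which held the highest value of both, by -0.30 and -1.07.

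Cyp2e1 (chr7:140763739-140774987), which oxidises ethanol and other small molecules, had 1.57, 0.307, 0.901, 2.06 and 0.492 CPM in 7-week periodontitis and 0.298, 0.539, 0.295, 0 and 0.201 CPM in 7-week control libraries. The groups overlapped, since control library 2 was above periodontitis libraries 2 and 5. At 2 weeks it had 0.15, 0.149, 0.0406, 0.0171 and 0.0671 CPM in periodontitis and 0.232, 0.253, 0.182, 0.66 and 0.483 CPM in control libraries, with periodontitis below control throughout. The log2 fold change by dam was 1.99 ± 0.63 at 7 weeks (edgeR adjusted p = 0.969) and -2.02 ± 0.68 at 2 weeks (adjusted p = 0.177). With age it was 3.59 ± 0.67 in periodontitis pups (edgeR adjusted p = 0.000122) and -0.42 ± 0.65 in control pups (edgeR adjusted p = 0.594). With the proximal and distal marker scores as covariates the control estimate was 3.74, in a fit that cannot separate segment from age. Cyp2e1 had enough counts for the filter only at 7 weeks, so the filter favoured a rise. Adipocyte markers moved alongside in part, with 4 of 5 tested estimates by dam below 0 at 2 weeks and 1 of 5 at 7 weeks, and 0 called at either age. Their summed list, which follows, did not move this way. Of the 5 tested, 2 were called in the difference between ages, Cfd and Retn; Adipoq had 2, 1.48, 1.52, 6.04 and 0 CPM in 7-week periodontitis libraries against 0 to 0.133 CPM in control libraries, and at 2 weeks 0.0426 to 0.358 CPM against 0.161 to 1.14 CPM. The summed list, most of it Cidec, ran from 94.9 to 342 CPM in 7-week periodontitis and 178 to 339 CPM in 7-week control libraries, and from 114 to 162 CPM and 42.7 to 129 CPM in 2-week periodontitis and control libraries. Lep was at 0 in 7-week control and 2-week periodontitis libraries. The part of fat tissue in the Cyp2e1 result was not tested.

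The difference between the dam effects was tested directly, as the effect at 7 weeks minus that at 2 weeks. By edgeR's adjusted p 0 of 44 members were called, as were 0.0229% of all genes tested, and DESeq2 called 1, Cyp2e1. At an unadjusted p under 0.05 there were 11 members, 9 positive and 2 negative, against 5.5% and 3.3% of all genes. The median difference was 0.64, beside 0.01 over all genes. The 5 with the smallest p were Cyp2e1 at 4.01 ± 0.93, Cyp3a16 at -4.65 ± 1.29, Cyp2s1 at 0.87 ± 0.28, Cyp2j6 at 1.04 ± 0.36 and Cyp4v3 at 1.94 ± 0.68, with edgeR adjusted p from 0.186 to 0.486. Without control library 5 of 2 weeks and periodontitis library 5 of 7 weeks edgeR called Cyp2e1 as well.

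Partner lists gave 0 calls by edgeR between the dams at either age. At 2 weeks the PXR and CAR targets outside the P450s had 9 of 10 estimates below 0 with a median of -0.61, led by Aldh1a1 at -1.39 (adjusted p = 0.0541) and Gsta1 at -1.37 (adjusted p = 0.118). The redox partners had 6 of 8 below 0 with a median of -0.31, the AHR targets 3 of 4 with -0.30, the arachidonate enzymes 8 of 10 with -0.14, the PPARA targets 6 of 12 with 0.03, the receptors 6 of 12 with -0.02 and the heme genes 3 of 12 with 0.19. The receptors Ahr, Nr1i2 (PXR) and Nr1i3 (CAR) differed by -0.64, 0.03 and 0.02, and Hnf4g by -1.19 (edgeR adjusted p = 0.0714). The first 3 values depend on control library 5. Ahr was at 47.2 CPM there, against 14 to 15.2 CPM in control libraries 1 to 4 and 11.5 to 16.5 CPM in periodontitis libraries. Nr1i2 was at 21.1 CPM, against 103 to 117 CPM and 84.2 to 102 CPM in the same order. Nr1i3 was at 15.5 CPM, against 34.6 to 47.9 CPM and 25.8 to 44.7 CPM. Over all genes the median was 0.02. At 7 weeks the medians of these lists lay between -0.34 and 0.00. The genes named here were chosen after their values were seen.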

How the data were processed

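Per the submitters' processing notes, the authors used cutadapt 4.8, FastQC 0.11.8, STAR 2.7.8a and RSEM 1.3.3 with GRCh38 and GRCm38; annotation release and strandedness are not given in the sources used here. The authors' table holds expected counts from RSEM, stored as whole numbers (rounding changed 0 values). RSEM shares reads among near-identical genes: 21 members (11 tested) share over 20% of their 50-base windows with another gene. Of 55491 lines, 4 name no mouse gene and hold 0 counts. All 75 members matched GENCODE M21, source of coordinates and exon lengths.

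In R 4.3.3, edgeR 4.0.16 was run on all 20 libraries: filterByExpr (17464 genes), TMM factors (0.715 to 1.45), 1 mean per group, robust quasi-likelihood tests (16 residual degrees of freedom), Benjamini-Hochberg adjustment over all genes tested, threshold 0.05. The SE is the fold change divided by the root of F. Exact permutation tests used log2 CPM with a prior count of 2. DESeq2 1.42.0, other filters and scaling, covariates, a replicate block and leaving out libraries were alternatives. The procedure was also run on simulated counts, with changes planted only in genes above a set mean level. Its outcome is not given here, and it does not cover members at a few counts.

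Members and gene lists were chosen with earlier results of these data known. Named members were the 10 with the highest CPM per kilobase, the 6 largest rises and the 6 largest falls called with age at a mean log2 CPM of at least 1, the 8 (for the difference, 5) smallest p by dam, and 12 listed by symbol. Of other lists, up to 3 called genes with the smallest p are named.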

Additional observations from a re-analysis of the deposited data

Results flagged for a closer look

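Single libraries stood apart from the other 4 of their group in 5 of 100 sets of 5 libraries examined for the named members (gap to the nearest library over the range on the log2 scale, limit 0.71); chance alone gives about 1 in 20. Of these, 4 concern control library 5 at 2 weeks, the library with the fewest counts. There Cyp1b1 was at 3.54 CPM, against 1.78 to 1.96 CPM in the other 4 controls. Cyp2j6 was at 287 CPM, against 157 to 182 CPM. Cyp3a25 was at 279 CPM, against 117 to 150 CPM. Cyp4a10 was at 143 CPM, against 36.8 to 53.5 CPM. The other was Cyp2c29 in periodontitis library 1 at 7 weeks, at 152 CPM against 483 to 748 CPM in the other 4 of its group.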

How the results depend on the processing

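With age, the number of members called ran from 30 to 45 in periodontitis pups (37 in the report) and from 26 to 35 in control pups (29), and leaving out 1 library gave 37 to 40 and 27 to 33. With the proximal and distal marker scores as covariates, 28 of the 37 and 20 of the 29 remained. The markers behind these scores moved with age themselves, so age estimates from this fit cannot separate segment from age. By dam at 2 weeks DESeq2 called 8 members and the fit without 2-week control library 5 and 7-week periodontitis library 5 called 3; leaving out 1 library gave 0 to 9, and the other alternatives 0. For the difference between dam effects, DESeq2 and the fit without those 2 libraries each called 1, Cyp2e1. The fit with the proximal and distal covariates also called 1, a member other than Cyp2e1. The shares of all genes called in these alternatives are not given here. At 7 weeks every alternative called 0. The fit to the compared groups alone does not exist for the difference, which uses all groups.

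The replicate block called 37 and 29 with age and 0 in each dam comparison and in the difference. Same-numbered libraries correlated between -0.4 and 0.29. The labels name no pairing by number, and these correlations cannot exclude a shared litter or batch. DESeq2's scaling moved the median of all genes by 0.12 in periodontitis and 0.09 in control pups with age.

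Signs that changed concerned members near 0 or Cyp4a genes; the cause was not tested. By dam at 2 weeks Cyp4a10 was 0.05 with no filter, 0.17 with the block, 0.02 with Ddx3y, 0.58 with the segment covariates, 0.46 without the 2 libraries and -0.17 to 0.46 leaving out 1; Cyp1b1 was -0.53 with the segment covariates and -0.15 to 0.39 leaving out 1; Cyp4b1 was 0.29 and -0.41 to 0.05. By dam at 7 weeks, without the 2 libraries, Cyp4a10 was -0.29 and Cyp4a32 -1.08, and leaving out 1 gave -0.30 to 0.96 and -1.07 to 1.64. With age and the segment covariates, Cyp4a10 was 0.31 in periodontitis pups, and Cyp1b1 -2.53 and Cyp2e1 3.74 in control pups. Cyp1b1 was also -2.53 in periodontitis pups, where its sign did not change, and passed there (edgeR adjusted p = 0.0262). Leaving out 1, Cyp1b1 was -0.06 to 0.30 in control pups. Members at a few counts, such as Cyp2j13 at 7 weeks, are limited by depth.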
